A study of Mus musculus with 6 samples.

Results

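The collagen genes of mouse cheek skin are described here across 3 water-treated and 3 solvent-treated cheeks. Members were the rows of the deposited gene table whose symbol has the form Col, a number, a and a number, with at least 10 estimated counts summed over the 6 libraries. Of 19309 genes in the table, 44 had such a symbol and 43 met the minimum. The row left out was Col9a1 with 3 counts, and the members just above the minimum were Col10a1 with 11, Col25a1 with 19 and Col2a1 with 28. The sum runs over both groups, so the rule used no difference between them. By class, 11 members were fibrillar, 9 belonged to basement membranes and anchoring structures, 8 were FACIT collagens (fibril-associated collagens with interrupted triple helices), 4 were transmembrane and 11 were of other kinds.

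The mice were C57BL/6 animals aged 6 to 8 weeks, with no transgene or deletion named in the labels. In each of 3 mice the right cheek received equal volumes of acetone and ether for 30 s, followed by water for 30 s. This treatment is called AEW and serves as a model of dry and itching skin. The left cheek of the same mouse was wiped with distilled water for 60 s (vehicle). Wiping was done 2 times a day for 12 days and skin was taken on day 12, so each group held 3 libraries from 3 animals. Treatment and side of the face cannot be told apart, because every AEW cheek was a right cheek. The title of the study names the matrix protease MMP9, which places the collagens among the genes its question touches.

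Collagens are the structural proteins of the extracellular matrix, and each is built from chains wound into a triple helix. In the dermis, fibroblasts secrete the fibrillar types I, III and V, which assemble into the fibres that give skin its strength, while FACIT collagens sit on the surface of those fibres. Type IV networks, type XVII in hemidesmosomes and type VII anchoring fibrils hold the epidermis to the dermis, and type VI forms beaded filaments around cells.

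Library totals ran from 18449145 to 19506462 estimated counts, and the collagens together made up 0.192% to 0.217% of TPM in the vehicle libraries and 0.237% to 0.476% in the AEW libraries. The AEW library of mouse 1 stood apart: its chi-square per degree of freedom over genes was 71.7 and 59.9 against the other AEW libraries, which differed from each other by 20.4. Skin markers were present in every library, with the basal keratin Krt14 at 1541 to 4326 FPKM and the dermal proteoglycan Dcn at 1063 to 2223 FPKM. Summed FPKM of 10 hair follicle markers was 141 to 152 in the vehicle libraries, and 980, 13.1 and 253 in the AEW libraries of mice 1, 2 and 3. Krt71, a hair follicle keratin, stood at 51.6 to 62.3 FPKM in the vehicle libraries and at 394, 2.43 and 105 in those AEW libraries. The summed FPKM of 12 skeletal muscle markers was 24079 to 33183 in vehicle and 10166 to 13668 in AEW libraries. Of the 12, 10 were called lower by edgeR, beside 6.8% of all genes. For 13 fibroblast markers that are not collagens, summed FPKM was 2595 to 3666 in vehicle and 2212 to 2666 in AEW libraries. Dcn was the largest part of that sum in every library, at 1063 of 2212 FPKM in the AEW library of mouse 1. Over these 13 markers the median log2 fold change was 0.015, and 7 were above 0. By edgeR 1 was called higher, Pdgfra, by 0.51 on the log2 scale (adjusted p = 0.0352, and 0.0703 with the mouse as a block). None was called lower, beside 4.85% of all genes called higher and 6.8% lower. Clec3b and Mfap5, at -0.97 and -0.68, lay below vehicle in all AEW libraries without passing. At an unadjusted p under 0.05 by edgeR, 1 was higher and 3 were lower, beside 14.8% and 16% of all genes. DESeq2 called 1 higher and 2 lower, beside 9.01% and 10% of all genes. The part of these markers in the collagen values below was not tested. In bulk skin, fewer cells of a type and less RNA per cell cannot be told apart.

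Levels were compared between collagens on the FPKM scale, which divides by gene length. Col3a1, the chain of type III collagen, was the most abundant member with a mean of 388 FPKM over the 6 libraries, which placed it 244th among all genes. The type I chains Col1a2 and Col1a1 came next at 269 and 259 FPKM, and their values overlapped across libraries. Col17a1, the hemidesmosomal collagen of basal keratinocytes, followed at 139 FPKM and was the most abundant collagen outside the dermal matrix classes. The type VI chains Col6a1 and Col6a2 averaged 111 and 108 FPKM, and Col4a1 and Col4a2, the chains of the common type IV network, averaged 65.4 and 39.9 FPKM. At the low end, Col25a1, a transmembrane collagen, averaged 0.0217 FPKM.

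Summed over the 11 fibrillar members, FPKM was 825, 780 and 638 in the vehicle libraries of mice 1, 2 and 3, and 1983, 902 and 819 in the AEW libraries. The AEW library of mouse 1 therefore held more fibrillar collagen transcript than any other library, while the AEW library of mouse 3 lay below the vehicle library of mouse 1. Basement membrane members summed to 157, 136 and 158 FPKM in vehicle and 222, 155 and 149 FPKM in AEW libraries. The 4 transmembrane members summed to 113, 186 and 149 FPKM in vehicle and 122, 147 and 166 FPKM in AEW libraries, with the groups overlapping.

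**Figure D1:**
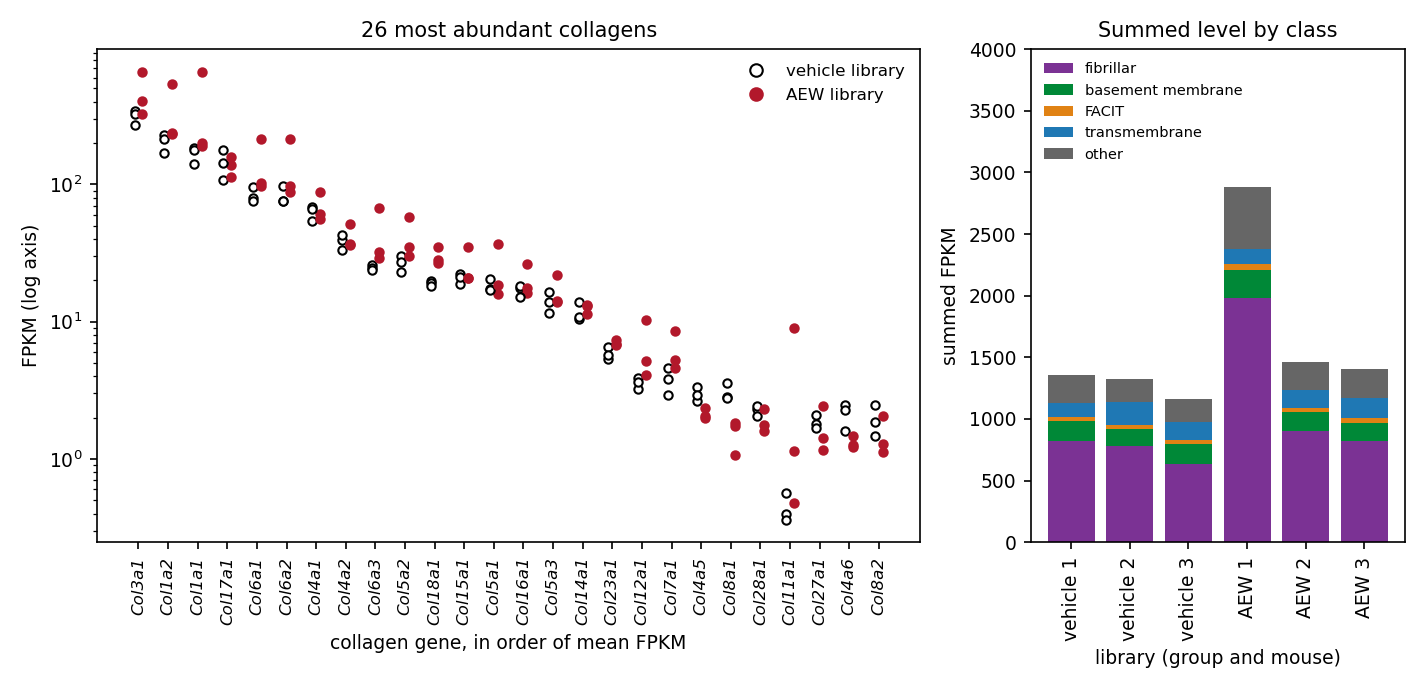
Deposited FPKM of the 26 most abundant collagens on a log axis (left; each point is 1 library, open for vehicle and red for AEW) and FPKM summed by collagen class in each library (right; linear axis). Col3a1, Col1a2 and Col1a1 lead, and the AEW bar of mouse 1 is the tallest at 2880 against 1161 to 1462 in the other 5 libraries.

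To ask whether AEW treatment changed collagen transcripts, counts of 15109 genes were tested together with edgeR's quasi-likelihood test, with Benjamini-Hochberg adjustment over all of them and a threshold of 0.05. Of the 43 collagens, 37 passed the filter on low counts. In this comparison Col18a1 rose, Col4a5 and Col8a1 fell, and the other 34 tested members did not pass. Among all tested genes 4.85% were called higher and 6.8% lower, and the collagens' 1 and 2 of 37 are near or below those shares. The median log2 fold change of the 37 collagens was 0.20, beside 0.014 over all tested genes. At an unadjusted p under 0.05, 8 collagens were higher and 3 lower, beside 14.8% and 16% of all genes. With the mouse as a block, 1 collagen was called higher (Col18a1) and 0 lower (3 at an unadjusted p under 0.05), beside 1.99% and 3.89% of all genes. DESeq2 called 4 higher (Col18a1, Col13a1, Col6a3 and Col11a1) and 3 lower (Col4a5, Col8a1 and Col4a6), beside 9.01% and 10% of all genes.

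The 3 AEW libraries lay above all 3 vehicle libraries for 8 tested collagens and below them for 4, while the groups overlapped for 25. Over all tested genes these shares were 17.4% above and 19.5% below. Of the 37 members, 13 were higher in AEW in every mouse and 5 were lower in every mouse, beside 25.3% and 26.9% of all tested genes. The low-count filter was met by level in both groups alike: 35 of the 37 reached 0.531 CPM in all 6 libraries, 0 in the AEW group alone and 1 in the vehicle group alone.

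**Figure D2:**
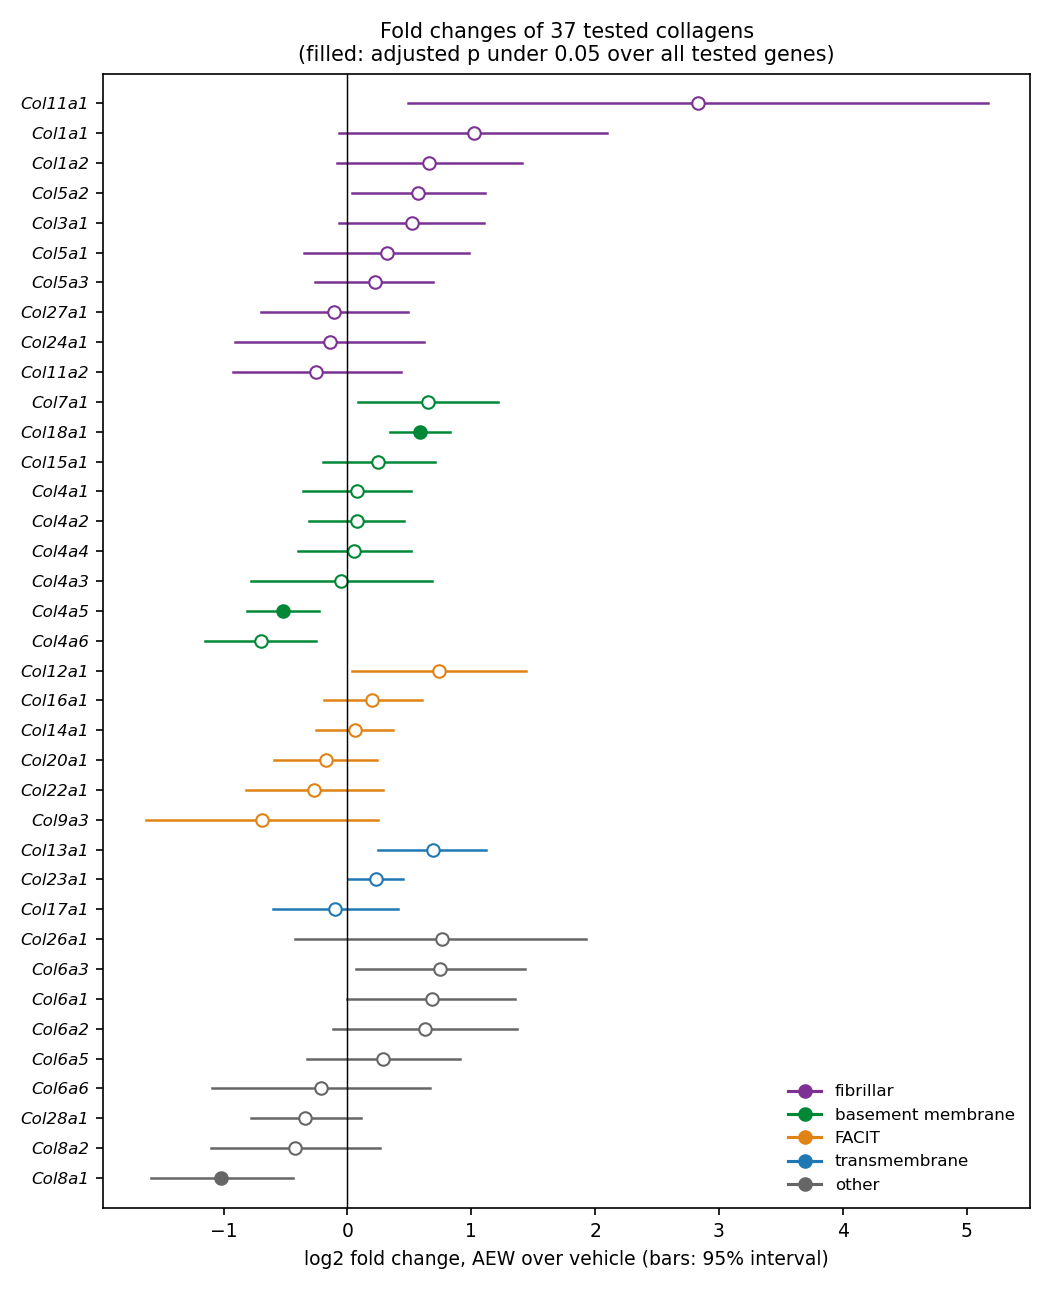
Log2 fold change of AEW over vehicle for each of the 37 tested collagens, by class, with 95% intervals from edgeR's quasi-likelihood test (n = 3 libraries a group). The intervals of Col18a1, Col4a5 and Col8a1 lie apart from 0 with adjusted p under 0.05, and the widest interval belongs to Col11a1.

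Col18a1 (NCBI gene 12822) encodes the chain of type XVIII collagen, a basement membrane proteoglycan whose C-terminal end is released as endostatin. Its level was 110, 103 and 101 CPM in the vehicle cheeks of mice 1, 2 and 3, and 176, 154 and 142 CPM in their AEW cheeks. Every AEW library was above every vehicle library, and the gene was higher in the AEW cheek of all 3 mice, by 1.6-fold, 1.49-fold and 1.4-fold (ratios within mice are on CPM with 0.1 added). The mean was 105 ± 4.36 CPM in vehicle and 157 ± 17.2 CPM in AEW (SD, n = 3 libraries each). On the log2 scale the difference was 0.59 ± 0.10 (SE; 95% interval 0.34 to 0.83), with an adjusted p of 0.0206 by edgeR. Without the AEW library of mouse 1 the log2 fold change was 0.49 with an adjusted p of 0.0207. Without the vehicle library of mouse 1, 2 or 3 its adjusted p was 0.0699, 0.0528 and 0.112, and without the AEW library of mouse 2 it was 0.0605, none of which passes. Endothelial cells, which also lie on basement membranes, gave lower marker levels in AEW cheeks. Summed FPKM of 10 endothelial markers was 146 to 190 in vehicle and 110 to 121 in AEW, and 3 of the 10 were called lower, beside 6.8% of all genes, and 1 with the mouse as a block. At an unadjusted p under 0.05 by edgeR 9 were lower, and DESeq2 called 9 lower, beside 16% and 10% of all genes. The part of these markers in the Col18a1 values was not tested.

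Transcription of Col18a1 can begin at more than 1 site, and the RefSeq promoter table (GRCm38.p6, another build than the GRCm39 of the counts) holds a pair of windows for it, 52825 bases apart. Gene totals cannot say which of them was in use. They are shown because Col18a1 was the collagen that rose, with each window running from 250 bases before to 30 bases after the annotated start, on the minus strand of chromosome 10. Capitals mark a match on either strand to CCAAT (the CCAAT box) or to GGGCGG (the GC box bound by SP1-family factors). TATAAA and the AP-1 element TGANTCA were also searched, and no matches overlap in these windows.
Col18a1 window 1, chr10:77113676-77113955, minus strand: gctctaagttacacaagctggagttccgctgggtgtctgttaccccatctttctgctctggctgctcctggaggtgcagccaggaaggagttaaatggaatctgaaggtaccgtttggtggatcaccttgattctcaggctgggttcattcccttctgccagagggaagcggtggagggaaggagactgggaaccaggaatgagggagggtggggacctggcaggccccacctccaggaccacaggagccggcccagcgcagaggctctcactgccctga
Col18a1 window 2, chr10:77166501-77166780, minus strand: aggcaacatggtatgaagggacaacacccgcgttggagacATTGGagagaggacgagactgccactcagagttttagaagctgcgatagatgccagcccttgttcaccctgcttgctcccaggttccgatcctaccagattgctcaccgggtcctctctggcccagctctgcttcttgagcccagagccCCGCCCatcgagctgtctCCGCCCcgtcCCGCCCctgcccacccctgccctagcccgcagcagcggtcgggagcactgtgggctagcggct
Window 2 holds 3 matches to GGGCGG and 1 to CCAAT, whereas window 1 holds no match to any of the 4 motifs. Over 32851 promoter windows of the same length, 34.7% hold GGGCGG, 36.1% CCAAT, 13.1% TATAAA and 7.46% TGANTCA. Among 38 windows of genes with a collagen symbol, with no minimum of counts applied, 23 hold GGGCGG, 13 CCAAT, 5 TATAAA and 1 TGANTCA. Of the members, 34 have an entry. A match is a string of letters and not a measured site.

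The basement membrane collagens did not move as a group, with a median log2 fold change of 0.075 over 9 tested members. Col4a1, a chain of the type IV network under every epithelium and endothelium, stood at 452, 351 and 450 CPM in the vehicle libraries and at 553, 405 and 363 CPM in the AEW libraries. The groups overlapped, and the log2 fold change was 0.075 ± 0.18 (SE; adjusted p = 0.816 by edgeR). Its partner chain Col4a2 stood at 256, 210 and 280 CPM in vehicle and at 315, 243 and 228 CPM in AEW, a log2 difference of 0.075 ± 0.16 (SE). Without the AEW library of mouse 1 both differences turned below 0, to -0.13 and -0.09 on the log2 scale. Both chains followed each other closely: the FPKM ratio of Col4a1 to Col4a2 was 1.73, 1.63 and 1.57 in vehicle and 1.71, 1.63 and 1.55 in AEW libraries.

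Col4a5 (NCBI gene 12830), a chain of the minor type IV networks, behaved otherwise. It stood at 17.2, 21.5 and 19.2 CPM in the vehicle libraries and at 14.4, 13 and 12.9 CPM in the AEW libraries. Every AEW library lay below every vehicle library, with ratios of 0.839, 0.607 and 0.671 within mice 1, 2 and 3. Its log2 fold change was -0.52 ± 0.12 (SE) with an adjusted p of 0.0403 by edgeR, and the adjusted p was 0.103 with the mouse as a block. The call also depended on other libraries. When the AEW library of mouse 1 was left out the difference was -0.58 on the log2 scale and the adjusted p 0.0292, whereas each of the other 5 omissions gave an adjusted p of 0.072 to 0.155. It did not pass with library totals in place of TMM (0.0632) or with limma on log2 TPM (0.115 with a pseudocount of 1 and 0.122 with 0.1). On FPKM, the ratio of Col4a5 to Col4a1 was 0.0391 to 0.0624 in vehicle and 0.0266 to 0.0369 in AEW libraries, without overlap.

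Col4a6 (NCBI gene 94216), which forms a network with Col4a5 in skin and smooth muscle, was singled out after its values were seen. It stood at 10.5, 16 and 15 CPM in vehicle and at 7.66, 8.4 and 9.56 CPM in AEW libraries, again with no overlap. The difference of -0.70 ± 0.19 on the log2 scale (SE) missed the threshold with an adjusted p of 0.0577 by edgeR. The FPKM ratio of Col4a5 to Col4a6 overlapped between groups, at 1.3 to 1.66 in vehicle and 1.4 to 1.9 in AEW. Summed FPKM of 9 pericyte and smooth muscle markers was 762 to 908 in vehicle and 379 to 472 in AEW libraries. Des, which skeletal muscle also expresses, was the largest part of it at 457 to 639 and 213 to 278 FPKM. By edgeR 3 of the 9 were called lower (Des, Cnn1 and Myh11), and 2 with the mouse as a block, beside 6.8% and 3.89% of all genes. At an unadjusted p under 0.05 by edgeR 6 were lower, and DESeq2 called 4 lower, beside 16% and 10% of all genes. The log2 fold change was -1.24 for Des and ran to 0.074 for Notch3. Whether that has a part in the lower Col4a5 was not tested.

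The genes of these chains lie head to head on the X chromosome and are transcribed away from each other, with annotated starts 1343 bases apart in GRCm38.p6. Their promoter windows are shown because the pair lay below vehicle in all AEW libraries. Capitals again mark CCAAT or GGGCGG on either strand.
Col4a5, chrX:141475169-141475448, plus strand: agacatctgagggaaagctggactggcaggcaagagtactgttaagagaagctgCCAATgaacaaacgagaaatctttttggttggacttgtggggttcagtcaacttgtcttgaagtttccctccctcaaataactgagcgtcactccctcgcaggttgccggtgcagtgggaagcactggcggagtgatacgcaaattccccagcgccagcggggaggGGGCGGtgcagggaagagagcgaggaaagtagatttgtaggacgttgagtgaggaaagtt
Col4a6, chrX:141474047-141474326, minus strand: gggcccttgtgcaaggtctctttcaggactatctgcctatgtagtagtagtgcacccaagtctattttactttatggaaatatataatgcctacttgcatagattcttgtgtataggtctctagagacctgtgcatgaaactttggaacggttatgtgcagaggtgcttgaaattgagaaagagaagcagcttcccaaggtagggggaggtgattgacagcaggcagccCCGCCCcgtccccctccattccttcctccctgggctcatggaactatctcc
Each window holds 1 match to GGGCGG, and that of Col4a5 also holds 1 to CCAAT. The GC content was 52.5% for Col4a5 and 48.6% for Col4a6, beside a median of 52.5% over all windows.

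Col7a1, whose product forms the anchoring fibrils beneath the epidermis, stood at 27.3, 42.3 and 36.1 CPM in vehicle and at 74.7, 43.2 and 48.1 CPM in AEW libraries. All AEW values lay above all vehicle values, but the margin between 42.3 and 43.2 CPM was small. The groups differed by 0.65 ± 0.24 on the log2 scale (SE; adjusted p = 0.122 by edgeR), and by 0.37 without the AEW library of mouse 1. Within mice, the AEW cheek held 2.73, 1.02 and 1.33 times the vehicle level. Col15a1, a basement membrane collagen of vessels and muscle, stood at 111, 92 and 108 CPM in vehicle and 164, 105 and 102 CPM in AEW libraries, with the groups overlapping. Without the AEW library of mouse 1 its log2 fold change went from 0.25 to -0.011. Col4a3 and Col4a4, minor type IV chains known from kidney, were at 1.24 to 2.43 and 3.33 to 4.29 CPM over all libraries and overlapped between groups.

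None of the 10 tested fibrillar collagens passed the threshold by edgeR (2, Col5a2 and Col11a1, had an unadjusted p under 0.05, and DESeq2 called 1), although their median log2 fold change was the highest of the 5 classes at 0.42. That order rested on the AEW library of mouse 1: without it the fibrillar median was 0.084, below 0.25 for the transmembrane and 0.10 for the other collagens. Col1a1 (NCBI gene 12842), the main chain of type I collagen, stood at 1089, 1043 and 849 CPM in the vehicle libraries and at 3720, 1147 and 1160 CPM in the AEW libraries. The AEW cheek of mouse 1 was far above the rest, and the AEW cheeks of mice 2 and 3 were only slightly above the highest vehicle cheek. The log2 fold change was 1.02 ± 0.46 (SE; adjusted p = 0.186 by edgeR) and 0.21 without that library. Col1a2, the second type I chain, stood at 1203, 1106 and 901 CPM in vehicle and at 2638, 1264 and 1179 CPM in AEW. That is a log2 fold change of 0.66 ± 0.32 (SE), and of 0.18 without the AEW library of mouse 1.

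Col3a1 (NCBI gene 12825), abundant in young and healing dermis, stood at 1910, 1802 and 1543 CPM in vehicle and at 3476, 2295 and 1760 CPM in AEW libraries. Each mouse had more Col3a1 on its AEW cheek, by 1.82-fold, 1.27-fold and 1.14-fold but the groups overlapped. Its log2 fold change was 0.52 ± 0.25 (SE; adjusted p = 0.205 by edgeR), and 0.20 without the AEW library of mouse 1. Col5a2, a type V chain that helps set fibril diameter, stood at 200, 179 and 154 CPM in vehicle and at 360, 236 and 197 CPM in AEW. It too was higher in all 3 mice, by 0.57 ± 0.23 on the log2 scale (SE; adjusted p = 0.142 by edgeR), and by 0.27 without the AEW library of mouse 1. The other type V chains, Col5a1 and Col5a3, had log2 fold changes of 0.32 and 0.22, and of -0.12 and -0.014 without the AEW library of mouse 1. The FPKM ratio of Col5a1 to Col5a2 was 0.636 to 0.752 in vehicle and 0.456 to 0.636 in AEW libraries, lower in AEW with ends that nearly meet.

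Col11a1, a type XI chain best known from cartilage and found at low levels in other tissues, had the largest fold change among the collagens and the least even values. Its level was 2.62, 3.24 and 1.95 CPM in the vehicle libraries and 46.2, 2.78 and 6.67 CPM in the AEW libraries. The AEW cheek of mouse 2 lay inside the vehicle range, and that of mouse 1 held 17-fold the level of its own vehicle cheek. The log2 fold change of 2.83 ± 0.99 (SE) had an adjusted p of 0.107 by edgeR, and without the AEW library of mouse 1 it was 0.85. Acan, the cartilage proteoglycan, stood at 0.03 to 0.09 FPKM in vehicle and at 2.08, 0.13 and 0.35 FPKM in AEW libraries. Col2a1, the main collagen of cartilage, had 28 counts in all, and 3 of the 8 cartilage markers passed the low-count filter. Over those 3 the log2 fold change had a median of -0.22 and ran from -0.47 to 3.82. Of them 1 was above 0, and 0 were called by edgeR. The remaining fibrillar members Col27a1, Col24a1 and Col11a2 had log2 fold changes of -0.11, -0.14 and -0.25, none called.

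**Figure D3:**
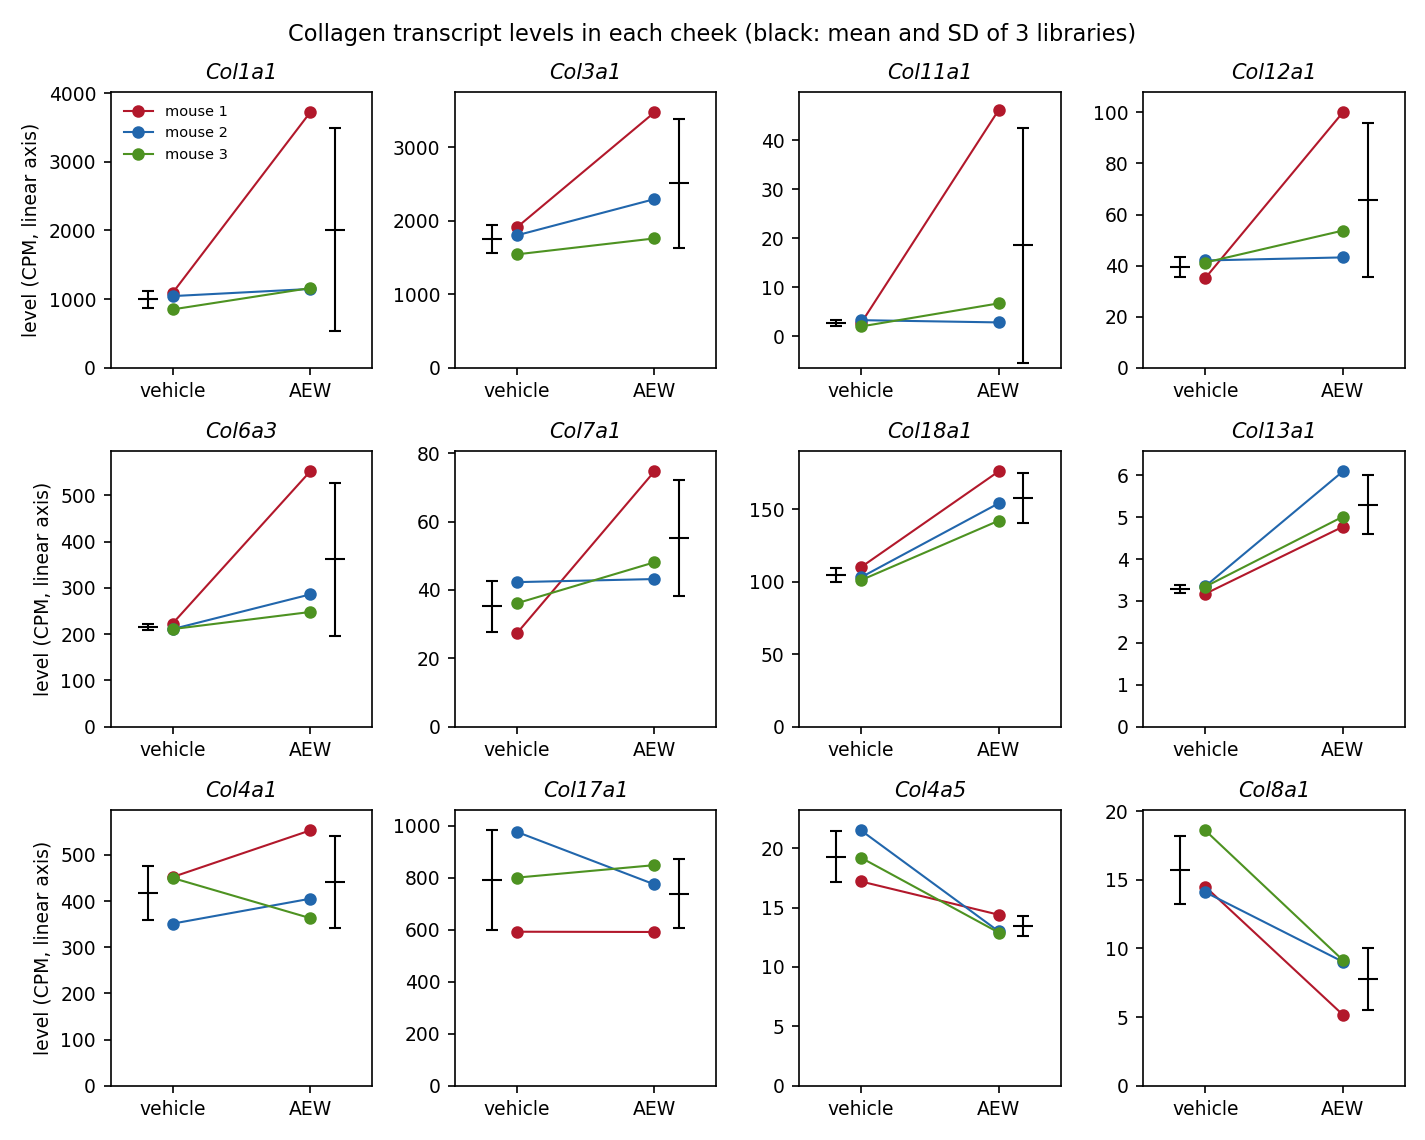
TMM-scaled CPM (linear axis) of 12 collagens in the vehicle and AEW cheek of each mouse, joined by lines, with the mean and SD of 3 libraries in black. The axis of Col11a1 extends below 0 to hold its SD bar. Col18a1, Col13a1, Col4a5 and Col8a1 move the same way in all 3 mice. Col1a1, Col3a1, Col12a1, Col6a3 and Col7a1 are also higher in all 3 mice, with by far the widest gap in mouse 1. Col11a1 is higher in mice 1 and 3, most in mouse 1, and lower in mouse 2.

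The 6 tested FACIT collagens had a median log2 fold change of -0.054 and none passed by edgeR or by DESeq2 (1, Col12a1, had an unadjusted p under 0.05). Col12a1, which bridges type I fibrils, stood at 35.1, 42 and 41.2 CPM in vehicle and at 100, 43.2 and 53.7 CPM in AEW libraries. The AEW values lay above the vehicle values, with that of mouse 2 only just so, and the log2 fold change was 0.74 ± 0.30 (SE; adjusted p = 0.146 by edgeR). The same difference lacking the AEW library of mouse 1 was 0.29. Col16a1, found in papillary dermis, and Col14a1, which binds fibrils in deeper dermis, had log2 fold changes of 0.20 and 0.065 and overlapped between groups. Col20a1 and Col22a1, the latter known from tissue junctions such as muscle to tendon, had log2 fold changes of -0.17 and -0.27. Col9a3, a type IX chain of cartilage, was scarce and overlapped between groups, with a log2 fold change of -0.69 (adjusted p = 0.287 by edgeR). Col22a1 stood at 1.3 to 1.64 CPM in vehicle and 1.19 to 1.24 CPM in AEW libraries, below vehicle in all AEW libraries but not called.

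Among the transmembrane collagens, Col17a1 stood at 592, 976 and 800 CPM in vehicle and at 591, 774 and 848 CPM in AEW libraries. The groups overlapped and differed by -0.10 ± 0.21 on the log2 scale (SE; adjusted p = 0.792 by edgeR), a value that was 0.031 without the AEW library of mouse 1. Summed FPKM of 9 basal keratinocyte markers, the cells that make Col17a1, was 3677, 5878 and 4702 in vehicle and 6704, 7045 and 6579 in AEW libraries. The keratins Krt14, Krt15 and Krt5 made up most of it. Of the 9, Krt14 alone was called (higher, 0.97 on the log2 scale, adjusted p = 0.0319 by edgeR), beside 4.85% of all genes called higher and 6.8% lower. Krt15 and Dst, at -0.76 and -0.51, lay below vehicle in all AEW libraries without passing. The FPKM ratio of Col7a1 to Col17a1 was 0.0258 to 0.0274 in vehicle and 0.0332 to 0.0752 in AEW libraries, without overlap.

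Col13a1, a transmembrane collagen found at cell adhesion sites and at the neuromuscular junction, stood at 3.17, 3.35 and 3.34 CPM in vehicle and at 4.77, 6.09 and 5.01 CPM in AEW libraries. Every AEW library was above every vehicle library, and mouse 2 rather than mouse 1 had the widest gap. Between groups it differed by 0.69 ± 0.18 on the log2 scale (SE), with an adjusted p of 0.0548 by edgeR. The same fit lacking the AEW library of mouse 1 gave 0.75 and an adjusted p of 0.0446. Col23a1 stood at 29.9 to 35.9 CPM in vehicle and 36.9 to 40.3 CPM in AEW libraries, 0.23 ± 0.10 higher on the log2 scale (SE; adjusted p = 0.158 by edgeR).

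Type VI collagen was higher in each AEW cheek than in the vehicle cheek of the same mouse for its 3 main chains, and none of the chains passed the threshold. Col6a1 stood at 379, 311 and 306 CPM in vehicle and at 802, 393 and 398 CPM in AEW libraries. Col6a3 stood at 223, 211 and 211 CPM in vehicle and at 552, 286 and 248 CPM in AEW. Their AEW libraries lay above all vehicle libraries, and those of Col6a2 overlapped with vehicle, at 287 to 369 and 340 to 767 CPM. The log2 fold changes of Col6a1, Col6a2 and Col6a3 were 0.68, 0.63 and 0.75, with adjusted p-values of 0.163, 0.231 and 0.131 by edgeR. They were 0.24, 0.13 and 0.30 without the AEW library of mouse 1. The FPKM ratio of Col6a1 to Col6a2 was 0.988 to 1.04 in vehicle and 0.993 to 1.11 in AEW libraries, and that of Col6a1 to Col6a3 was 3.17 to 3.71 and 3.02 to 3.53. Both ratios overlapped between groups.

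Col8a1 (NCBI gene 12837), a short-chain network collagen of vessel walls and of the layer under corneal endothelium, fell. It stood at 14.5, 14.1 and 18.6 CPM in the vehicle libraries and at 5.17, 9.03 and 9.15 CPM in the AEW libraries. Every AEW library lay below every vehicle library, with ratios of 0.362, 0.643 and 0.494 within mice 1, 2 and 3. Its log2 fold change was -1.02 ± 0.24 (SE; 95% interval -1.59 to -0.44) with an adjusted p of 0.0428 by edgeR, and the adjusted p was 0.0576 with the mouse as a block. Omitting the AEW library of mouse 1 gave -0.80 on the log2 scale with an adjusted p of 0.025, and each of the other 5 omissions gave an adjusted p of 0.0656 to 0.167. With limma on log2 TPM and a pseudocount of 0.1 it was 0.0538. Col8a2, its partner chain, overlapped between groups at 6.39 to 10.5 CPM in vehicle and 4.57 to 8.63 CPM in AEW libraries. The promoter window of Col8a1 is shown because this collagen had the largest fall, with GGGCGG matches on either strand in capitals.
Col8a1, chr16:57754708-57754987, minus strand in GRCm38.p6: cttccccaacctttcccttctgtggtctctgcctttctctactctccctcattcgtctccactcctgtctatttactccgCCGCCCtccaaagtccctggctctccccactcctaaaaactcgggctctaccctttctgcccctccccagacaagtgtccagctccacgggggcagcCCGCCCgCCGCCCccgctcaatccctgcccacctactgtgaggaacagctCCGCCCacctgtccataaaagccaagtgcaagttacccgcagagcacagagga
It holds 4 matches to GGGCGG and none to the other 3 motifs.

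Col28a1, a collagen of peripheral nerve, stood at 10.3 to 11 CPM in vehicle and 7.04 to 10.9 CPM in AEW libraries, and overlapped. Summed FPKM of 9 Schwann cell markers was 346 to 358 in vehicle and 199 to 363 in AEW libraries. Col26a1, Col6a5 and Col6a6 had log2 fold changes of 0.76, 0.29 and -0.21, none called. Of the 6 members below the filter, Col6a4 lay above vehicle in all AEW libraries, at 0.0556 to 0.27 against 0.315 to 0.646 CPM. The other untested members, Col2a1, Col9a2, Col19a1, Col25a1 and Col10a1, overlapped between groups, each with 30 counts or fewer in total, and a difference was not detectable at this depth.

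The pattern of mouse 1 ran through the class. In the AEW library of mouse 1, 19 of 37 tested collagens had their highest value of all 6 libraries, beside 26.5% of all tested genes. The AEW to vehicle ratio was largest in mouse 1 for 24 of 37, beside 42.4% of all genes. In mouse 1, 14 collagens were at least 1.5-fold higher on the AEW cheek, against 1 in mouse 2 and 2 in mouse 3. Over all tested genes, 12.5%, 9.58% and 11.6% were that much higher in mice 1, 2 and 3. At least 1.5-fold lower were 3, 8 and 3 collagens in mice 1, 2 and 3, beside 17.9%, 10.4% and 10.1% of all genes, so mouse 2 had more collagens that much lower than higher. The median log2 ratio of the 37 members was 0.35, 0.029 and 0.16 in the 3 mice. Hair follicle markers moved with the same library, since 9 of the 10 had their highest value there, and their median log2 ratio was 2.89, -2.18 and 0.60 in mice 1, 2 and 3. Whether they have a part in the collagen values was not tested.

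**Figure D4:**
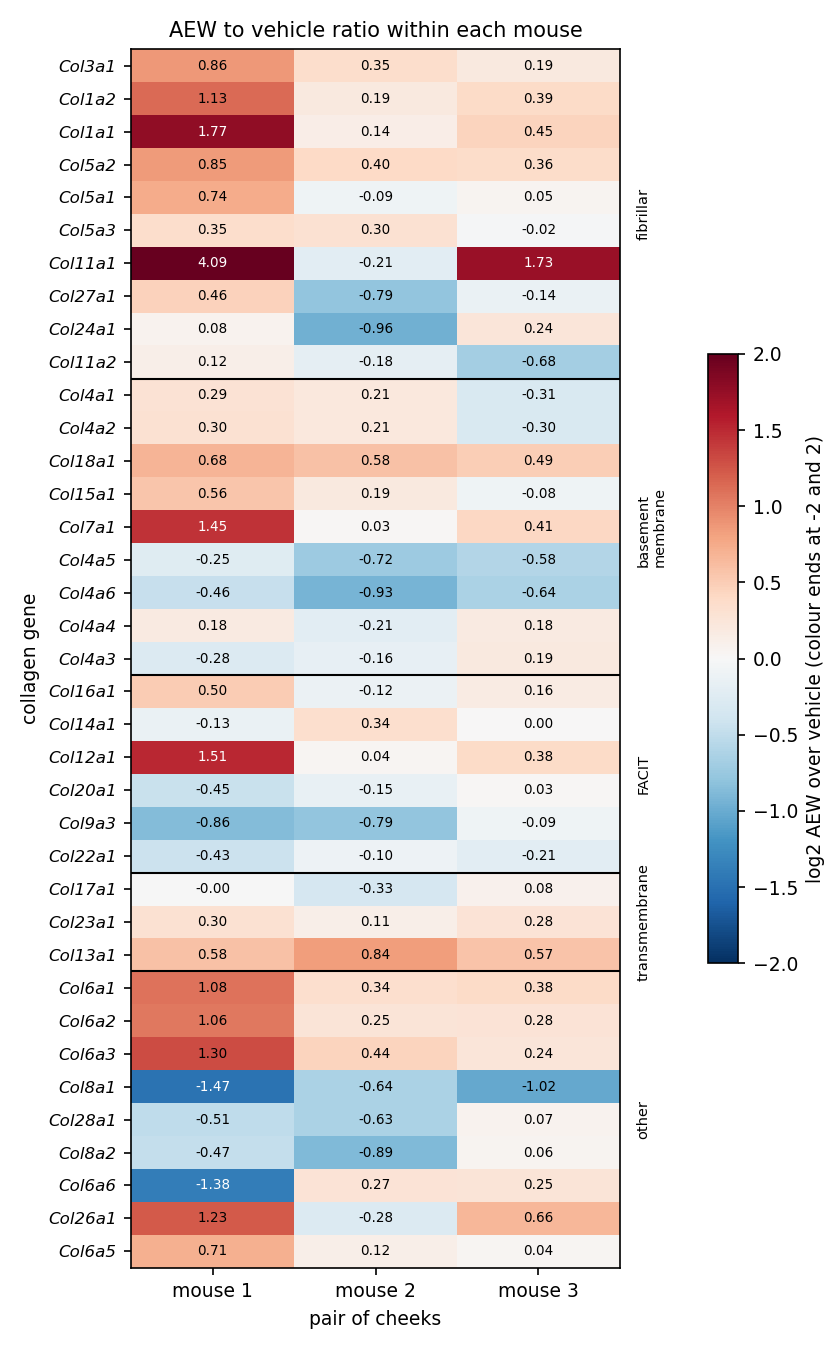
Log2 ratio of AEW over vehicle for each tested collagen (rows) in each mouse (columns), on CPM with 0.1 added. Red cells are higher and blue cells lower on the AEW cheek; the column of mouse 1 holds most of the strong red, including Col11a1 and Col1a1.

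With the AEW library of mouse 1 left out, the median log2 fold change of the collagens was 0.034 in place of 0.20, and the fibrillar median 0.084 in place of 0.42. In that fit 2 members were called higher, Col18a1 and Col13a1, and 2 lower, Col4a5 and Col8a1, beside 7.9% and 6.94% of all tested genes. With both cheeks of mouse 1 left out and the other mice as blocks, 3 were called higher (Col18a1, Col5a2 and Col6a1) and 3 lower (Col4a5, Col4a6 and Col8a1), beside 12.6% and 10.5% of all genes. In that fit Col5a2 was higher by 0.38 and Col6a1 by 0.36 on the log2 scale, with edgeR adjusted p-values of 0.0315 and 0.0376. The same omission with no block gave 0.134 and 0.0771 for them, and there Col18a1 was the 1 collagen called higher.

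**Figure D5:**
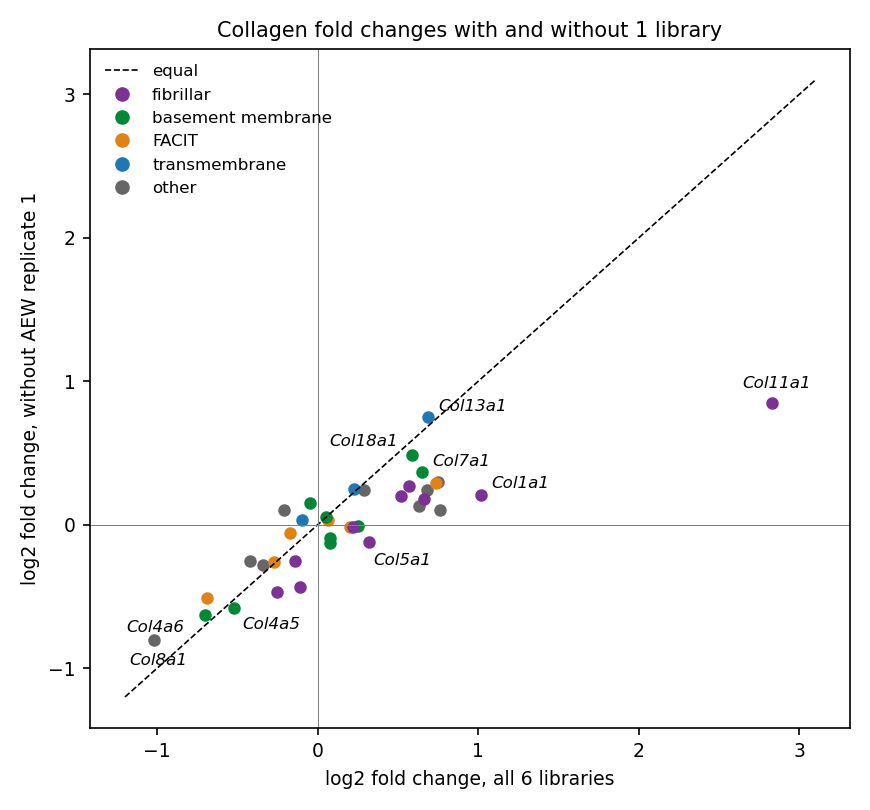
Log2 fold changes of the 37 tested collagens with all 6 libraries (horizontal) and without the AEW library of mouse 1 (vertical), coloured by class, with a dashed line of equality. Col11a1 and Col1a1 drop from 2.83 and 1.02 to 0.85 and 0.21, while Col18a1, Col13a1 and Col4a5 stay near the line.

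The ratio of Col1a1 to Col1a2 on FPKM also set that library apart, at 1.24 against 0.796 to 0.866 in the other 5. The ratio of Col1a1 to Col3a1 stood at 0.516 to 0.543 in vehicle libraries and at 1, 0.469 and 0.618 in the AEW libraries of mice 1, 2 and 3. Both ratios overlapped between groups.

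Genes that make, bind and cut collagen were counted in 85 rows, of which 83 were tested. By edgeR 3 were higher (P4hb, Adgrg1 and Mmp14) and 4 lower (Tmem38b, Tll2, Pcolce2 and Aspn), against the same 4.85% and 6.8% of all genes, and their median log2 fold change was -0.015. With the mouse as a block, 1 was called higher (Mmp14) and 2 lower (Tmem38b and Aspn), beside 1.99% and 3.89% of all genes. Leaving out the vehicle library of mouse 1 or 3 left 0 of the 83 called. Without the AEW library of mouse 2 there were 2, and without the vehicle library of mouse 2 there were 4. In those fits, in that order, 33, 23, 182 and 377 of all tested genes were called higher and 148, 114, 265 and 808 lower. Of 21 genes for collagen modification and folding, P4hb, the shared subunit of prolyl 4-hydroxylase, rose. It stood at 396, 387 and 403 CPM in vehicle and at 540, 535 and 527 CPM in AEW libraries, a log2 difference of 0.43 with an adjusted p of 0.028 by edgeR and of 0.0587 with the block. Every AEW library was above every vehicle library. The other prolyl 4-hydroxylase subunits in the list, P4ha1, P4ha2 and P4ha3, had log2 fold changes of -0.23, -0.23 and 0.51, none called by edgeR. Tmem38b, an ion channel of the endoplasmic reticulum whose loss impairs collagen folding, fell, standing at 24.1 to 28.1 CPM in vehicle and 15.4 to 18.5 CPM in AEW libraries (log2 difference -0.67, adjusted p = 0.0182 by edgeR).

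Of 13 genes for procollagen trimming and crosslinking, 2 fell by edgeR, and 0 rose by edgeR or DESeq2 (1 was higher at an unadjusted p under 0.05). Pcolce2, an enhancer of procollagen C-proteinase, stood at 108 to 160 CPM in vehicle and at 59.5 to 83.5 CPM in AEW libraries, without overlap. On the log2 scale it differed by -0.81, with adjusted p-values of 0.0388 by edgeR, 0.111 with the mouse as a block and 0.0516 without the AEW library of mouse 1. Tll2, a tolloid-like proteinase, was scarce at 1.04 to 2.11 CPM in vehicle and 0.414 to 0.735 CPM in AEW libraries. Its adjusted p was 0.044 by edgeR, 0.0884 with the block, 0.0645 without that library and 0.0532 with no low-count filter.

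Among 15 collagen-binding matrix proteins, Aspn, a small leucine-rich proteoglycan that binds collagen fibrils, fell. It stood at 198, 148 and 153 CPM in vehicle and at 106, 95.8 and 99 CPM in AEW libraries, a log2 difference of -0.73 ± 0.13 (SE; adjusted p = 0.0206 by edgeR). All AEW values lay below all vehicle values. Tnxb and Dpt, both linked to fibril organisation in dermis, had log2 fold changes of -0.55 each and did not pass.

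Of 11 collagen receptors and uptake genes, Adgrg1, an adhesion G-protein-coupled receptor for type III collagen, rose, standing at 83.3 to 90 CPM in vehicle and 123 to 154 CPM in AEW libraries. The log2 difference was 0.65, with an adjusted p of 0.017 by edgeR and of 0.050045 with the mouse as a block. Mrc2, an endocytic receptor for collagen, had a log2 fold change of 0.36, and Itga1, a collagen-binding integrin chain, one of -0.48, neither called.

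Of 9 tested collagen-cleaving proteases, Mmp14, a membrane protease that cuts fibrillar collagen, rose. It stood at 160, 148 and 126 CPM in vehicle and at 285, 237 and 184 CPM in AEW libraries, without overlap. Its log2 fold change was 0.70 ± 0.17 (SE; adjusted p = 0.0459 by edgeR), and without the AEW library of mouse 1 it was 0.53 with an adjusted p of 0.0608. Mmp13, the main interstitial collagenase of the mouse, stood at 1.58, 1.57 and 0.445 CPM in vehicle and at 1.84, 12 and 5.89 CPM in AEW libraries. All AEW values were higher, least in mouse 1, and the adjusted p was 0.0729 by edgeR and 0.0171 without the AEW library of mouse 1. Ctsk, a cathepsin that degrades collagen, differed by 0.85 on the log2 scale (adjusted p = 0.0748 by edgeR). Mmp9, the gelatinase of the study's title, stood at 8.79, 6 and 8.39 CPM in vehicle and at 3.58, 11 and 12.1 CPM in AEW libraries. The AEW libraries lay on both sides of the vehicle range, and the log2 difference was 0.20 ± 0.43 (SE; adjusted p = 0.785 by edgeR). For Mmp9 the same fit lacking the AEW library of mouse 1 gave 0.57 and an adjusted p of 0.0978. With both cheeks of mouse 1 left out, Mmp9 was called higher when each mouse was a block (0.70, adjusted p = 0.0293) and was not called with no block (0.68, adjusted p = 0.0875). In that fit with the block, 6 of the 9 tested proteases were called higher, beside 12.6% of all genes, and 0 lower. The 6 were Mmp2, Mmp9, Mmp13, Mmp14, Ctsk and Ctsl.

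Of 14 genes that signal for collagen production, 0 were called in either direction by edgeR, while 3 were lower at an unadjusted p under 0.05 and DESeq2 called 1 lower. Scx, a transcription factor of tendon and fibrous tissue that acts on type I collagen genes, stood at 7.56 to 9.13 CPM in vehicle and at 4.73 to 6.31 CPM in AEW libraries (log2 difference -0.67, adjusted p = 0.0537 by edgeR, and 0.0234 without the AEW library of mouse 1). Tgfb2 and Pdgfb, growth factors that act on fibroblasts, had log2 fold changes of -0.62 and -0.29 and did not pass.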

How the data were processed

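Cheek skin of 3 mice was profiled by poly(A) RNA sequencing, read as single ends of 50 bases, in 6 libraries. For 19309 genes the authors deposited estimated counts together with FPKM and TPM, named as such per the file headers. The submitters' processing notes name HISAT and GRCm39. The sources used here name no counting tool, annotation or handling of strand, so reads of overlapping or antisense genes cannot be told apart. Estimated counts were fractional for 53.9% to 57.2% of genes in a library and were rounded to whole numbers.

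A minimum count of 10 in filterByExpr (edgeR) kept 15109 genes, with at least 99.94% of the counts. Counts were scaled with TMM factors of 0.973 to 1.05 and tested with edgeR 4.0.16 (quasi-likelihood, group as the only term) in R 4.3.3. P-values were adjusted over all 15109 genes by the Benjamini-Hochberg method at 0.05, and intervals are at 95%. Standard errors were derived from each F value. Alternatives were the mouse as a block, other scalings, no filter, DESeq2 1.42.0, limma 3.58.1 on log2 TPM plus 1 or 0.1, and each library left out; leaving out mouse 1 on both cheeks was added after seeing the data. The labels give both cheeks of a mouse the same number, so the pairing is by animal. Deviations from group means correlated at -0.244, -0.165 and -0.246 within mice 1, 2 and 3, and at 0.0496 to 0.181 between mice. The script was tested on simulated data. No libraries of a group were copies of each other.

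Members and gene lists were chosen with earlier results of these data known. Genes named were Col1a1, Col4a1, Col7a1 and Mmp9, every collagen or list gene past the threshold, the 4 most abundant members and the 2 with the smallest p of each class, the 3 with the smallest p of each other list, and the 2 most abundant genes of each marker list; other names were added after their values were seen. Promoter sequences are from RefSeq (GRCm38.p6) and were matched by symbol for 34 of 43 members. No other coordinates were used.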

Additional observations from a re-analysis of the deposited data

How the results depend on the processing

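Collagens called higher numbered 1 by edgeR with all libraries, 4 with DESeq2, 2 on TPM with a pseudocount of 1 and 2 with 0.1, 0 to 2 with each library left out in turn, and 3 with mouse 1 left out and the replicate block. Those called lower numbered 2, and 0 with the replicate block, 1 with library totals in place of TMM, 1 on TPM with a pseudocount of 1, 0 with 0.1, and 0 to 2 with each library left out. The median log2 fold change of 0.20 ran from 0.034 to 0.22 with each library left out. Of the 83 tested genes that process or bind collagen, 7 were called, 3 with the replicate block and 12 with DESeq2. The number was 24 with mouse 1 left out and the block, and 0 to 7 with each library left out. Over all tested genes, 4.85% were called higher and 6.8% lower with all libraries, and 1.99% and 3.89% with the replicate block. DESeq2 called 9.01% and 10% of them, and the fit with mouse 1 left out and the block 12.6% and 10.5%. Directions turned for small differences. With each library left out, the log2 fold change ran from -0.13 to 0.2 for Col4a1, -0.09 to 0.17 for Col4a2, -0.011 to 0.38 for Col15a1, -0.017 to 0.31 for Col16a1, -0.02 to 0.2 for Col14a1, -0.27 to 0.085 for Col17a1 and -0.092 to 0.57 for Mmp9. With mouse 1 left out on both cheeks, Col4a1 was at -0.052 with the replicate block and -0.061 without it, and Col4a2 at -0.046 and -0.059. The cause was not tested; the fits without a library hold fewer samples. Leaving out any vehicle library or the AEW library of mouse 2 left 0 collagens called, while all genes called still numbered 23 to 377 higher and 114 to 808 lower. Precision is set by 3 mice, the same animals in both groups, and, for members under the filter, by counts.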

Other observations

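Macrophage markers took another course than the fibrillar collagens in mouse 1. Summed FPKM of 7 of them was 585, 297 and 242 in the vehicle libraries of mice 1, 2 and 3, and 300, 702 and 545 in the AEW libraries. C1qb, a complement chain made by macrophages, stood at 206, 90.1 and 74.8 FPKM in vehicle and at 94.9, 251 and 188 FPKM in AEW libraries. In mouse 1 the AEW cheek was lower and in mice 2 and 3 it was higher, and 0 of the 7 were called by edgeR with all libraries, 0 at an unadjusted p under 0.05 and 0 by DESeq2. With both cheeks of mouse 1 left out and the other mice as blocks, 7 of 7 were called higher, with a median log2 fold change of 1.15, beside 12.6% of all genes. Of 8 adipocyte markers 2 were called lower, beside 6.8% of all genes, and 0 with the mouse as a block, with summed FPKM of 3120 to 5040 in vehicle and 2273 to 2662 in AEW libraries. At an unadjusted p under 0.05 by edgeR 7 of them were lower, and DESeq2 called 6 lower, beside 16% and 10% of all genes.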
